A study of Rattus norvegicus with 8 samples.

Results

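Carbonic anhydrases and subunits of the vacuolar proton pump handle acid and bicarbonate in cells, and 9 of their genes were followed over 8 Affymetrix arrays of rat ventral prostate RNA. The genes were the carbonic anhydrases Car2, Car4, Car9 and Car12 and the pump subunits Atp6v1c2, Atp6v1b1, Atp6v1b2, Atp6v1a and Atp6v0d1. All probe sets annotated to exactly 1 of these symbols were taken, which gave 13 of the 31042 probe sets that are not array controls. The 9 genes were among 14217 named on the array. The family was chosen by the measured lineage changes of Car2 and Atp6v1c2, which were lower in whole prostate of the vinclozolin lineage but not in epithelium. The lineage values of these 2 genes are therefore given as a description, with no test.

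All animals were male Sprague-Dawley rats of generation 3, whose ancestors in the founder generation were injected intraperitoneally while pregnant, from embryonic day 8 to 14. Vinclozolin, a fungicide used on crops, has breakdown products that block the androgen receptor, and the question was whether descendants of treated and of control rats differ in prostate RNA. The 4 groups had 2 arrays each: whole ventral prostate at 180 days of control and of vinclozolin lineage, and epithelium of ventral prostate at 45 days of control and of vinclozolin lineage. The treatment protocol names the vehicle DMSO for all 8 samples, those titled vinclozolin included, so the groups rest on the titles. Each epithelium sample was pooled from 11 animals and each whole prostate sample from several. The labels do not say whether pools of a group shared animals, so the p-values reflect the spread from pool to pool alone, which may be technical. Age and preparation changed together and cannot be told apart.

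Carbonic anhydrases interconvert carbon dioxide and water with bicarbonate and a proton. The vacuolar proton pump (V-ATPase) uses ATP to move protons into lysosomes and secretory vesicles or across the plasma membrane. Its cytosolic V1 sector carries the ATP-splitting subunits A (Atp6v1a) and B (Atp6v1b1 or Atp6v1b2), subunit C (Atp6v1c1 or Atp6v1c2) ties V1 to the membrane sector V0, and subunit d (Atp6v0d1) sits where the sectors meet. In the male tract, proton-secreting clear cells of the epididymis use this pump together with the cytosolic enzyme encoded by Car2.

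The start regions of Atp6v1c2, lower in whole prostate of the vinclozolin lineage, and of Atp6v0d1, a ubiquitous subunit with no called change, are shown because these subunits of the same complex had different values. Each is the 250 bases upstream of the start given by RefSeq (GRCr8), 5′ to 3′ on the gene's strand. Capitals mark the octamer ATGCAAAT in Atp6v1c2 and the E-box core CACGTG in Atp6v0d1.
Atp6v1c2, chr6:45848748-45848997, minus strand: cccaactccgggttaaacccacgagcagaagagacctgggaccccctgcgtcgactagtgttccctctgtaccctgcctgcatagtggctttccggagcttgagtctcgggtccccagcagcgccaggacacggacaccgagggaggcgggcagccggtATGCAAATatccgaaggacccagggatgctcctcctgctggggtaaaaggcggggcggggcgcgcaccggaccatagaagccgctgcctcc
Atp6v0d1, chr19:50357249-50357498, minus strand: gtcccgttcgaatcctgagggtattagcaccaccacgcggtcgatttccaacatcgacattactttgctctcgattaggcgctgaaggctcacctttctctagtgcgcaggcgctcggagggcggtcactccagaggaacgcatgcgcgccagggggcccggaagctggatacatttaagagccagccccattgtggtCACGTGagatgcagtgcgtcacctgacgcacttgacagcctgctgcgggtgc
The Atp6v1c2 window lies inside the annotated span of its gene, upstream of an internal start. On either strand, CACGTG was present in 5.59% of 33469 such windows and ATGCAAAT, a motif searched after the sequence had been read, in 1.56%. RefSeq windows were at hand for 7 of the 9 genes and not for Car2 and Atp6v1b2. Among these 7, Atp6v0d1 alone held CACGTG and Atp6v1c2 alone held ATGCAAAT. The androgen receptor hexamer TGTTCT was in 0 of the 7, against 17.5% of all windows. The hypoxia response core ACGTG, which overlaps CACGTG, was in Car4 and Atp6v0d1, against 16.6% of all windows. These are letter matches and say nothing about binding.

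Before the members' values, the arrays themselves were compared. Over all probe sets, 3 arrays were closer to an array of another group than to their partner. The Spearman coefficients were 0.9307 against 0.9273 for whole prostate vinclozolin replicate 1, 0.9315 against 0.9272 for epithelium control replicate 2 and 0.9315 against 0.9292 for epithelium vinclozolin replicate 2. The labelled epithelium had luminal keratin RNA, with Krt8 between 2506.3 and 2916.5 units. Of 10 luminal markers, however, 7 were lower in epithelium control than in whole prostate control (median log2 difference -0.20), with 2 called lower and 2 higher. The epithelium controls were also higher in stromal markers. Of 7 smooth muscle markers, 6 were called higher in the epithelium controls (median log2 difference 2.67), as were 6 of 7 fibroblast (median 1.03), 5 of 8 basal epithelial (median 1.76) and 3 of 5 endothelial markers (median 1.41), while 4 of 8 macrophage and 5 of 6 adipocyte markers were called lower. Over all probe sets, 12.9% were called higher and 15% lower between the control groups. With lineage, the smooth muscle, fibroblast, basal, endothelial, luminal, adipocyte and red blood cell lists had 0 genes called in either preparation in limma, with 10 whole prostate and 8 epithelium values at an unadjusted p under 0.05. In such bulk RNA, fewer cells of a type and less RNA per cell cannot be told apart.

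Of the 13 member probe sets, 8 were bright enough to be tested, in the 5 genes Car2, Atp6v1c2, Atp6v1b2, Atp6v1a and Atp6v0d1. The filter kept probe sets whose mean over all arrays, taken on the log2 scale, came to about 13.7 intensity units or more. Car4, Car9, Car12 and Atp6v1b1 were below it. Values below are deposited intensities, which are linear and in arbitrary units, or log2 changes on the log2(intensity + 16) scale after quantile normalisation, with the standard error (SE) of the limma fit and n = 2 arrays per group. Calls were made where the adjusted p was below 0.05.

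**Figure D1:**
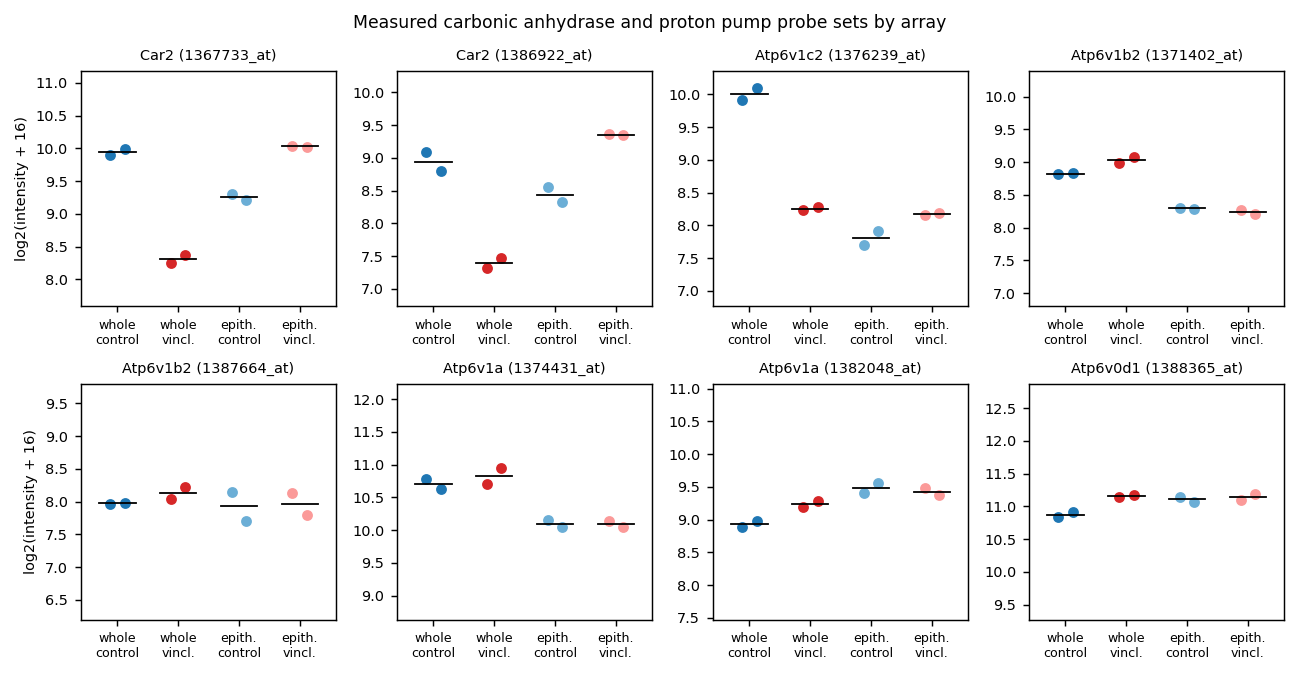
Log2(intensity + 16) after quantile normalisation, on the y axis, of the 8 member probe sets that were tested, by group on the x axis; points are arrays, bars are means of 2 arrays, and each panel spans the same number of log2 units. Car2 is lowest in whole prostate vinclozolin, Atp6v1c2 is high in whole prostate control alone, and Atp6v1b2, Atp6v1a and Atp6v0d1 stay within a narrower band.

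Car2 encodes a fast cytosolic carbonic anhydrase. On probe set 1367733_at it read 964.5 and 1015 units in whole prostate control and 293.6 and 320.6 in whole prostate vinclozolin. In epithelium it read 592.4 and 567.3 in control and 996.9 and 998.8 in vinclozolin. The lineage thus went with lower values in whole prostate and with higher values in epithelium, with no overlap of arrays in either preparation. The log2 change was -1.63 ± 0.11 in whole prostate, or 3.10-fold lower, and 0.77 ± 0.11 in epithelium, or 1.71-fold higher. The epithelium vinclozolin arrays lay within the range of the whole prostate control arrays in deposited units.

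The second probe set of Car2, 1386922_at, had the same order within each preparation. It read 554.8 and 446.3 in whole prostate control, 142 and 159 in whole prostate vinclozolin, 347.8 and 297.3 in epithelium control and 613.3 and 614.6 in epithelium vinclozolin. Its log2 changes were -1.55 ± 0.15 in whole prostate and 0.92 ± 0.15 in epithelium, which differed between the 2 probe sets by less than either SE in whole prostate and by no more than the larger SE in epithelium. The difference of the effects, epithelium minus whole prostate, was 2.40 ± 0.16 on the former and 2.46 ± 0.22 on the latter. The probe sets measure the same RNA on the same arrays and are not separate replicates.

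Atp6v1c2 encodes the tissue-restricted form of subunit C. It read 978.4 and 1090.5 units in whole prostate control and 287 and 298.9 in whole prostate vinclozolin. In epithelium it read 189.7 and 221.1 in control and 264.3 and 269.5 in vinclozolin. Whole prostate control stood apart from the other 6 arrays, which lay between 189.7 and 298.9. The log2 change with lineage was -1.75 ± 0.13 in whole prostate, or 3.37-fold lower, and 0.37 ± 0.13 in epithelium, and their difference was 2.13 ± 0.18. Control epithelium minus control whole prostate was -2.20 ± 0.13 for Atp6v1c2 and -0.69 ± 0.11 for Car2 on 1367733_at. These control values share arrays with the values that chose both genes.

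Subunits A, B and d of the same pump, which were not picked for their values, had no called change with lineage. Atp6v0d1, the ubiquitous d subunit, read 1747.4 and 1816 units in whole prostate control and 2314.7 and 2369.6 in vinclozolin. Its log2 change was 0.28 ± 0.11 (adjusted p = 0.238 in limma, 95% interval 0.02 to 0.54), and the arrays did not overlap. In epithelium it read 2226.6 and 2163.7 in control and 2201.2 and 2378.9 in vinclozolin, with overlap (0.03 ± 0.11). Neither change was called, although with a trended robust prior the whole prostate value was (limma adjusted p = 0.0136).

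Atp6v1a, the catalytic A subunit, had 2 probe sets. On 1382048_at it read 481.7 and 508.9 in whole prostate control and 584.9 and 619.3 in vinclozolin, a log2 change of 0.31 ± 0.12 (limma adjusted p = 0.229). This one also passed with the trended robust prior (limma adjusted p = 0.0448). On 1374431_at it read 1689.8 and 1490.9 in whole prostate control and 1683.2 and 2003.5 in vinclozolin, where the groups overlapped (0.12 ± 0.13, limma adjusted p = 0.674). In epithelium the changes were -0.06 ± 0.12 on the former and 0.00 ± 0.13 on the latter, with overlap on each.

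Atp6v1b2, the widely expressed B subunit, read 455.6 and 458.5 in whole prostate control and 510.8 and 536.5 in vinclozolin on 1371402_at. That is a log2 change of 0.21 ± 0.11 (limma adjusted p = 0.345, 95% interval -0.04 to 0.46). Its other probe set, 1387664_at, measured 0.16 ± 0.19 there. In epithelium the changes were -0.06 ± 0.11 and 0.03 ± 0.19. In whole prostate the 95% intervals of Atp6v0d1 and of Atp6v1a on 1382048_at (0.03 to 0.59) lay above 0. The other 3 intervals for subunits A and B held 0, and the lowest bound among all 5 was -0.29.

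Counted over the 8 tested probe sets, 3 were called lower in whole prostate and 0 higher (Car2 on 2 probe sets and Atp6v1c2), against 1.74% of all 21729 probe sets called, 0.925% lower and 0.819% higher. These are the genes that were picked, so nothing is read from that count. It was 5, with Atp6v1a and Atp6v0d1 higher, with a trended robust prior, 2 without whole prostate control replicate 1 or without either whole prostate vinclozolin array, and 0 without whole prostate control replicate 2. With median centring the split over all probe sets was 178 higher and 315 lower, against 178 and 201 here. In epithelium 0 of the 8 were called in limma (3 had an unadjusted p under 0.05), against 0.0092% of all, and 2, the probe sets of Car2, were called with a pseudocount of 64 or with a trended robust prior. Arrays of the lineages did not overlap for 7 of the 8 in whole prostate, 4 higher and 3 lower, against 53.9% of all probe sets, 26.1% higher and 27.8% lower. In epithelium they did not overlap for 4 of the 8, 3 higher and 1 lower, against 39.4% of all, 19.7% higher and 19.7% lower. The difference of the effects was called for 3 of the 8, all higher, against 0.29% of all, 0.17% higher and 0.12% lower, again Car2 on 2 probe sets and Atp6v1c2. That count was 0 without either whole prostate control array, without whole prostate vinclozolin replicate 1 or without epithelium vinclozolin replicate 2, 1 without whole prostate vinclozolin replicate 2, epithelium control replicate 1 or epithelium vinclozolin replicate 1, and 2 without epithelium control replicate 2.

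For subunits A, B and d the difference of the effects was not called. It was -0.25 ± 0.15 for Atp6v0d1 (limma adjusted p = 0.539), -0.37 ± 0.17 and -0.12 ± 0.19 for the probe sets of Atp6v1a (limma adjusted p = 0.397 and 0.827), and -0.27 ± 0.15 and -0.13 ± 0.27 for those of Atp6v1b2 (limma adjusted p = 0.483 and 0.878). The 95% interval for Atp6v0d1 ran from -0.62 to 0.12.

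The membrane-bound carbonic anhydrases and the B subunit of specialised acid-secreting cells were at the bottom of the intensity scale. Car4, whose product is anchored on the outer cell surface, read at most 7 units on 1368437_at and between 1.1 and 21.2 on 1391132_at. Car9, a transmembrane enzyme induced by hypoxia, read between 1.2 and 32.2, where the highest value was epithelium vinclozolin replicate 1 and its partner read 1.2. Car12, another transmembrane enzyme, read between 1.2 and 18.1, again with epithelium vinclozolin replicate 1 highest. Atp6v1b1, the B subunit of renal intercalated and epididymal clear cells, read between 0.9 and 13.3. The spread within a group was as wide as that between groups for Car9, Car12 and Atp6v1b1, and no change was tested for these 5 probe sets.

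**Figure D2:**
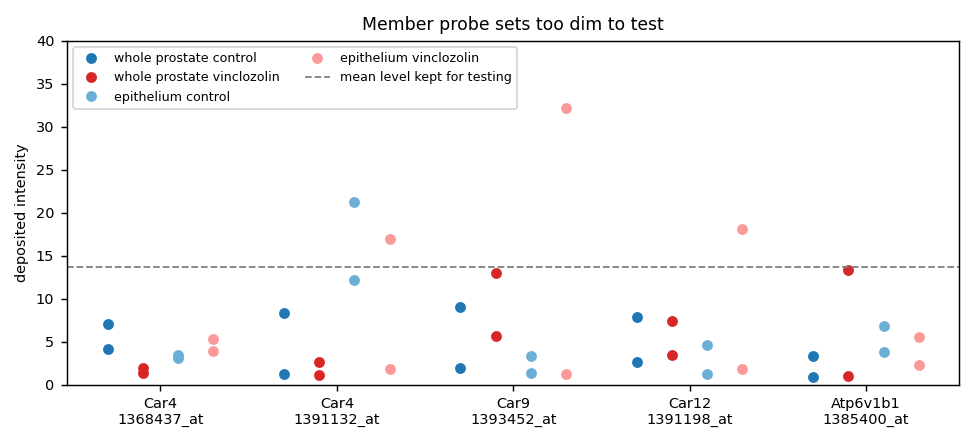
Deposited intensity on the y axis of the 5 member probe sets below the filter, on the x axis; points are the 8 arrays, coloured by group, and the dashed line is the mean level of about 13.7 above which probe sets were tested. Most points lie under 15 units, and the highest, 32.2 for Car9, has a partner array at 1.2.

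The remaining genes of each family, from lists written with earlier results of these data known, were then read. Of 20 other V-ATPase genes, 18 were on the array and 17 were tested. In whole prostate 14 of the 17 had a positive change on their brightest probe set, with a median of 0.23 against -0.01 over all probe sets, and in epithelium 13 of 17, with a median of 0.06 against -0.00. In limma 0 of the 17 were called in either preparation, with 7 in whole prostate and 3 in epithelium at an unadjusted p under 0.05. The number of positive changes in whole prostate was 13 with median centring and ranged from 12 to 16 with an array left out, and the median lay between 0.18 and 0.24 in all settings run. Macrophage markers, which mark cells rich in lysosomes, had 6 positive and 2 negative changes there (median 0.54). Called higher were 2 of the 8, Fcgr3a (1.17 ± 0.19) and Csf1r (1.11 ± 0.15). Negative and not called were Cd163 and Adgre1, the latter at 41.3 and 41.5 units in control and 33.2 and 33.5 in vinclozolin. The macrophage list summed to 568 to 577.7 units in control and 932.5 to 959.3 in vinclozolin. The part of macrophages in the V-ATPase values was not tested.

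The range of these 17 genes in whole prostate ran from -0.16 for Atp6ap2, an accessory subunit, to 0.42 for Atp6v1g3, the G subunit of acid-secreting cells. The dimmer probe sets measured 0.21 for Atp6ap2, of opposite sign, and 0.04 for Atp6v1g3, and none of these values was called. Atp6v1c1, the ubiquitous form of subunit C, read 653.7 and 653.1 units in whole prostate control and 853.4 and 807.7 in vinclozolin. Its log2 change was 0.34 ± 0.12 in whole prostate (limma adjusted p = 0.198) and 0.34 ± 0.12 in epithelium (limma adjusted p = 0.367). The C subunit genes thus had changes of opposite sign in whole prostate, -1.75 for Atp6v1c2 and 0.34 for Atp6v1c1, of which the latter was not called. Atp6v0c, which forms the proton-carrying ring, measured 0.33 ± 0.11 there (limma adjusted p = 0.193).

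**Figure D3:**
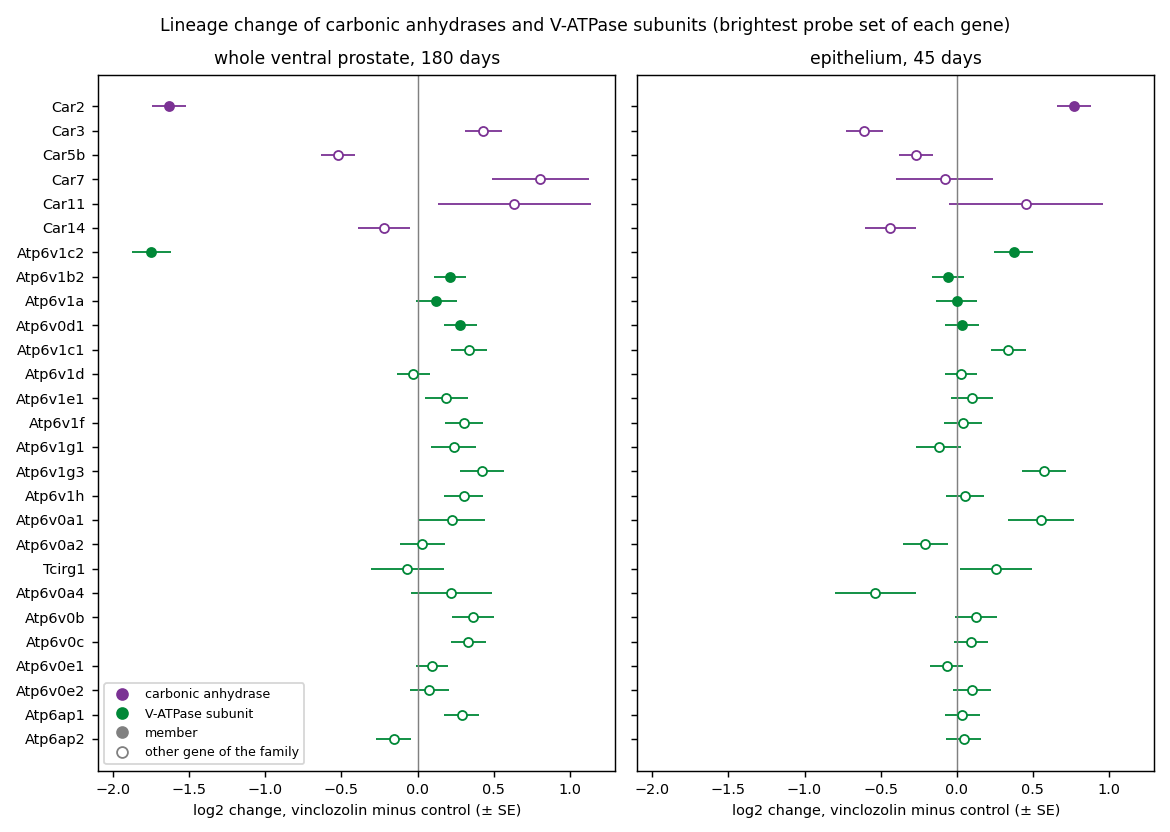
Log2 change, vinclozolin minus control, on the x axis with the SE as bars, for the brightest tested probe set of each carbonic anhydrase (purple) and V-ATPase subunit (green) on the y axis, in whole prostate (left) and epithelium (right); filled points are members, open points other genes of the family. In whole prostate Car2 (-1.63) and Atp6v1c2 (-1.75) stand far to the left, while 14 of 17 other V-ATPase genes lie to the right of 0.

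Of 12 other carbonic anhydrases, 10 were on the array and 5 tested, and 0 were called with lineage in either preparation in limma, with 3 in whole prostate and 2 in epithelium at an unadjusted p under 0.05. Car5b, the mitochondrial form, was nearest the threshold in whole prostate, at -0.52 ± 0.11 and -0.71 ± 0.13 on its probe sets (limma adjusted p = 0.0795 and 0.0547). It read 232 and 234.4 units in control and 153.3 and 150.9 in vinclozolin on the former. In epithelium it measured -0.27 ± 0.11 and -0.41 ± 0.13, the same sign as in whole prostate, unlike Car2. Car3, a form abundant in fat and muscle, measured 0.43 ± 0.12 in whole prostate and -0.61 ± 0.12 in epithelium on 1367896_at (limma adjusted p = 0.14 and 0.233), and the difference of these effects was -1.04 ± 0.17 (limma adjusted p = 0.0873). On 1386977_at it measured 1.08 ± 0.41 and -0.36 ± 0.41 (limma adjusted p = 0.227 and 0.796), of the same signs and with a wider error. That probe set read 162.1 and 143.9 units in whole prostate control and 340.3 and 348.7 in vinclozolin, without overlap.

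Transporters of acid and bicarbonate were represented by 29 of 41 genes, of which 16 were tested. In limma 0 were called with lineage in either preparation, with medians of 0.11 and 0.01, and 3 and 2 genes had an unadjusted p under 0.05. The lowest p-values belonged to Slc16a3, a lactate exporter (0.68 ± 0.14, limma adjusted p = 0.0742), and Slc4a7, a sodium-bicarbonate cotransporter (0.63 ± 0.15, limma adjusted p = 0.0908), in whole prostate, and to Slc16a3 (0.63 ± 0.14) and the ammonia channel gene Rhcg (1.20 ± 0.27) in epithelium, each with a limma adjusted p of 0.255. Lysosomal genes, whose compartments the pump acidifies, had medians of 0.06 in whole prostate and -0.04 in epithelium over 25 genes. Ctsd (0.60 ± 0.11, limma adjusted p = 0.0553) and Ctss (0.68 ± 0.14, limma adjusted p = 0.0714), which encode cathepsins, were nearest the threshold in whole prostate, and 0 of the 25 passed in either preparation in limma, with 6 and 2 at an unadjusted p under 0.05. In epithelium the lowest p-values were those of Ctsd (0.32 ± 0.11) and Gaa (0.35 ± 0.13), not called. Hypoxia response genes had medians of 0.05 and -0.02 over 18 genes with 0 called in limma, and 5 and 3 at an unadjusted p under 0.05. Nearest there were Hk2 (0.78 ± 0.16) and Pgk1 (0.47 ± 0.11) in whole prostate and Pgk1 (0.58 ± 0.11) and Ndrg1 (-0.55 ± 0.17) in epithelium. A dimmer tested probe set of Pgk1, 1387361_s_at, went the other way in epithelium, with a mean log2 level of 9.237 in control and 9.142 in vinclozolin. In whole prostate it went the same way, from 8.935 to 9.113. Over all probe sets 18.7% had an unadjusted p under 0.05 in whole prostate and 11.4% in epithelium, and for the difference of the effects in 13.5%. That difference was called in limma for 0 genes of these 5 lists, with 9 at an unadjusted p under 0.05.

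Members that had not been picked for their values were tested between the control groups, epithelium at 45 days minus whole prostate at 180 days. Over the 8 probe sets, 5 were called lower and 1 higher in epithelium, against 15% and 12.9% of all probe sets and 27.8% in either direction. That count includes the picked genes, of which Car2 on 1386922_at (-0.51 ± 0.15) lost its call in 13 of 18 other settings. Atp6v1b2 was lower on 1371402_at, at 291.4 and 289.4 units against 455.6 and 458.5 (-0.53 ± 0.11, limma adjusted p = 0.0128), and its other probe set measured -0.05 ± 0.19 with overlapping arrays. Atp6v1a moved in opposite directions on its probe sets. It was lower in epithelium on 1374431_at, at 1094.8 and 1026.3 against 1689.8 and 1490.9 (-0.61 ± 0.13, limma adjusted p = 0.018), and higher on 1382048_at, at 643.3 and 714.5 against 481.7 and 508.9 (0.55 ± 0.12, limma adjusted p = 0.0163). No direction can be given for that gene.

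These control differences depended on scaling and on single arrays. With median centring the median of all probe sets in this comparison was -0.20, against -0.06 here, and 28.9% of calls were higher, against 46.3% here. There the value of 1382048_at was 0.21 (limma adjusted p = 0.228). The call of Atp6v1b2 on 1371402_at was lost without whole prostate control replicate 1 or 2 (limma adjusted p = 0.07 and 0.0728). That of Atp6v1a on 1374431_at was lost without any of the 4 control arrays (limma adjusted p from 0.0509 to 0.104). On 1382048_at it was lost without whole prostate control replicate 1 or 2 or epithelium control replicate 2 (limma adjusted p from 0.0662 to 0.0953). Atp6v0d1 measured 0.23 ± 0.11 and was not called (limma adjusted p = 0.166, and 0.0122 with a trended robust prior).

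Of the 17 other V-ATPase genes, 4 were called higher and 4 lower in epithelium control than in whole prostate control, on their brightest probe sets. Higher were Atp6v0a4, the a subunit of acid-secreting cells (0.93 ± 0.27), Atp6v0a2, the a subunit of the Golgi (0.81 ± 0.15), Atp6v1h, a regulatory subunit (0.65 ± 0.13), and Atp6v0c (0.40 ± 0.11). Lower were Atp6v0a1 (-1.23 ± 0.22), Atp6v1d of the central shaft (-0.71 ± 0.11), Atp6v0e1 (-0.67 ± 0.11) and Atp6v1c1 (-0.41 ± 0.12). The limma adjusted p was 0.0431 or less for each. Positive values were 9 of the 17 here and 4 with median centring, so the balance of signs moved with the scaling. Atp6ap2 was called higher on its dimmer probe set (0.79 ± 0.14) and not on its brighter one (0.10 ± 0.11). Atp6v0a2 went the other way on its dimmer probe set, 1377020_at, which was not called. That probe set read 138.7 and 153.1 units in whole prostate control and 102.7 and 137.2 in epithelium control. No direction can be given for Atp6v0a2.

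Car3 was lower in epithelium, at -2.46 ± 0.12 on 1367896_at (limma adjusted p = 9.25e-05) and -1.75 ± 0.41 on 1386977_at (limma adjusted p = 0.0221). On the former it read 209 and 179 units against 1173.7 and 1138.2. The adipocyte list, which holds Car3, went the same way, with 5 of 6 tested genes called lower and a median of -2.99. The part of fat in the Car3 value was not tested. Car5b was higher in epithelium on 1377573_at (0.71 ± 0.11, limma adjusted p = 0.00605). Its other probe set, 1390807_at, read 316 and 328.9 units against 234.7 and 281.9 and was not called. Car14, a membrane-bound form, was higher on both of its probe sets (0.70 ± 0.17 and 0.53 ± 0.13, limma adjusted p = 0.0244 and 0.0294).

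Of the transporters, Slc26a4, the chloride-bicarbonate exchanger pendrin, was lower (-1.53 ± 0.14, limma adjusted p = 0.000836). It read 58.5 and 70.1 units in epithelium control and 218.9 and 197.8 in whole prostate control. Slc4a7 was also lower (-0.60 ± 0.15), on the probe set that was called. Its other, dimmer probe set went the other way, at 34.3 and 57.2 units in epithelium control and 19.4 and 21.2 in whole prostate control. The monocarboxylate carriers Slc16a7 (1.43 ± 0.20) and Slc16a3 (0.66 ± 0.14) were higher. Slc16a3 was dim, at 14.7 and 17 units in epithelium control and 1.2 and 4.4 in whole prostate control. Lysosomal genes were called higher for 3 and lower for 3 of 25 on their brightest probe sets, with Psap (-1.11 ± 0.11) and Ctss (-1.17 ± 0.14) among the lower and Ctsd (0.58 ± 0.11) and Ctsz (0.77 ± 0.14) among the higher. Of 18 hypoxia response genes 9 were called higher and 0 lower on their brightest probe sets, with a median of 0.41. The largest values were those of Hk2 (2.23 ± 0.16), Adm (1.87 ± 0.14) and Slc2a1 (1.62 ± 0.11), which encode a hexokinase, adrenomedullin and a glucose carrier. Car9 and Car12, which hypoxia induces in many cells, stayed at the bottom of the scale.

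Markers of proton-secreting cells had no called change with lineage. Of 9 such markers 8 were on the array, and their summed intensity was 555.1 to 615.9 units in whole prostate control and 549.8 to 551 in vinclozolin. In epithelium it was 398.8 to 471.8 in control and 520.2 to 529 in vinclozolin. The sums did not overlap between lineages and went the way of Car2, by a smaller margin. In whole prostate the gap between lineages was smaller than that between the control arrays. Over all probe sets, arrays of the lineages did not overlap for 53.9% in whole prostate and 39.4% in epithelium. Atp6v1g3, the brightest of these markers in epithelium, went against Car2 in whole prostate, at 130.5 and 130.4 units in control and 204.3 and 155.5 in vinclozolin. The markers' mean log2 level was 6.157 and 6.142 in whole prostate control and 5.954 and 5.968 in vinclozolin. In epithelium that level overlapped between lineages, at 5.903 and 5.653 in control and 5.848 and 5.941 in vinclozolin. By gene, 6 changes were negative and 2 positive in whole prostate, and 5 were positive and 3 negative in epithelium. In limma 0 of the 8 were called in either preparation, with 2 in each at an unadjusted p under 0.05, and the medians were -0.28 in whole prostate and 0.13 in epithelium. The part of such cells in the Car2 and Atp6v1c2 values was not tested. Foxi1, the transcription factor that defines such cells, read between 6.6 and 42.8 on all arrays with overlap between groups. Red blood cells also hold much of the Car2 enzyme, and the haemoglobin gene Hbb read 923.6 and 994.6 in whole prostate control and 1176.2 and 1122.3 in vinclozolin, a change of 0.26 ± 0.11 that was not called. The other tested genes of the red blood cell list measured -0.47 ± 0.33 (Slc4a1, the anion exchanger of red cells) and 0.03 ± 0.31 (Alas2, of haem synthesis), also not called, so the list had no single direction. The part of blood in the Car2 value was not tested. The luminal epithelial list summed to 29930 to 30150 units in whole prostate control and 32110 to 32870 in vinclozolin, but 7 of its 10 genes had negative log2 changes there (median -0.04). Its mean log2 level overlapped between lineages, at 11.113 and 11.091 in control and 11.066 and 11.095 in vinclozolin.

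Secretion genes of the accessory glands had log2 changes with lineage of the same signs as Car2, negative in whole prostate and positive in epithelium for all 6 tested genes. For Svs1 the whole prostate value was only -0.05, and its arrays overlapped between lineages in both preparations. Outside whole prostate control, Svs3a and Svs5 were dim, at 0.6 to 21.4 and 1 to 32.7 units. Their list, with 7 of 9 genes on the array, summed to 12100 to 12540 units in whole prostate control and 6226 to 6889 in vinclozolin, and to 8057 to 8202 in epithelium control and 12090 to 12340 in vinclozolin. In whole prostate Msmb (-1.55 ± 0.11), Svs4 (-1.17 ± 0.12) and Semg1 (-0.80 ± 0.12) fell, with limma adjusted p of 0.0338 or less, and in epithelium all 6 tested genes had positive changes, with 0 called in limma and 4 at an unadjusted p under 0.05. Msmb, Svs4 and Semg1 had their lowest mean log2 level in whole prostate vinclozolin, as Car2 did, while Svs1, Svs3a and Svs5 had theirs in epithelium control. The part of the accessory glands in the Car2 value was not tested.

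Skeletal muscle genes moved with Atp6v1c2 in whole prostate. All 8 genes of that list were tested, and 4 were called lower there, Myl1 (-2.87 ± 0.16), Tnnc2 (-1.95 ± 0.11), Tnnt3 (-1.59 ± 0.18) and Acta1, at 608.2 and 628 units in control and 287.1 and 294.2 in vinclozolin. Over all probe sets 0.925% were called lower. Tnnt3 read 88.6 and 77.9 units in whole prostate control and at most 22.7 elsewhere. Its dimmer probe set went the other way, uncalled, at 14.5 and 12 in whole prostate control and 21 and 22.5 in vinclozolin. The list's summed intensity was 2892 to 3101 units in whole prostate control and 1595 to 1596 in vinclozolin. Myl1, a fast myosin light chain, read 377.9 and 372.3 in whole prostate control, 28.5 and 35.8 in vinclozolin and between 11.2 and 25.4 in epithelium, an order like that of Atp6v1c2. In epithelium the list summed to 7984 to 8080 units in control and 6845 to 6966 in vinclozolin, above whole prostate. Acta1 alone read between 3866.2 and 4820.4 there. The list's mean log2 level in epithelium, 7.025 to 7.297, lay between those of whole prostate control (7.797 and 7.846) and vinclozolin (6.305 and 6.346). Between the control groups 4 of the 8 genes were higher and 4 lower in epithelium (median log2 difference -0.86). Atp6v1c2 was lower in the epithelium arrays than in any whole prostate array. The part of muscle tissue in the Atp6v1c2 value was not tested.

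**Figure D4:**
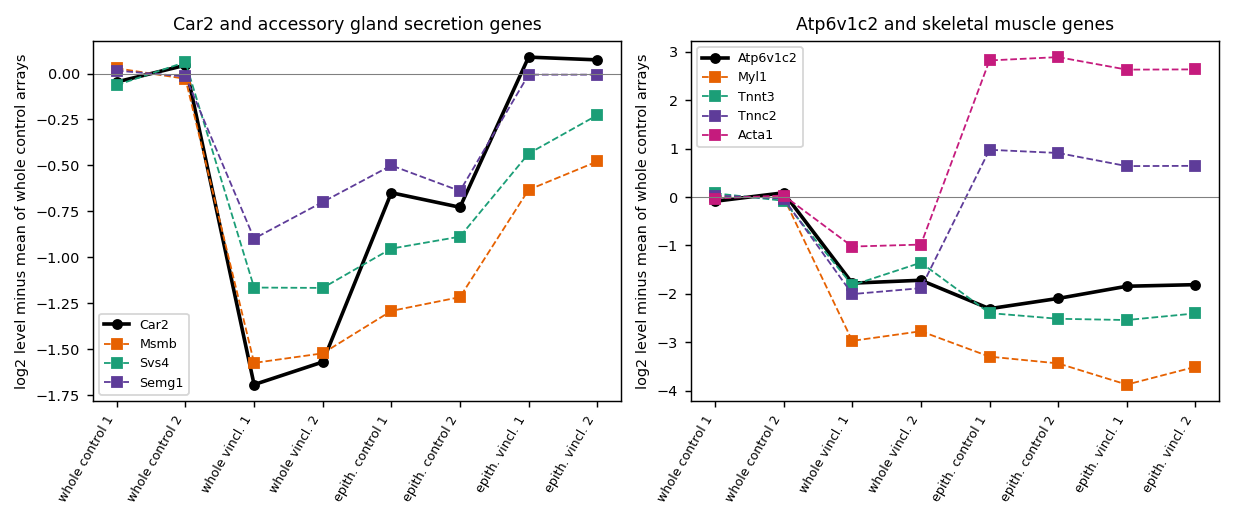
Log2 level on each of the 8 arrays (x axis) minus the mean of the whole prostate control arrays (y axis), for Car2 with 3 accessory gland secretion genes (left) and Atp6v1c2 with 4 skeletal muscle genes (right); lines only join the arrays of a gene. Car2, Msmb, Svs4 and Semg1 are all lowest or near lowest in whole prostate vinclozolin and higher in epithelium vinclozolin than in epithelium control, and Acta1 and Tnnc2 part from Atp6v1c2 in epithelium.

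The genes whose profiles over the 8 arrays were most like that of Car2 were found by Pearson correlation among 2461 named genes with group means at least 1 log2 unit apart. All points share the 4 groups, so the values are descriptions. They were Nt5dc1 (r = 0.987), Ccdc125 (0.979), Bmp6, a growth factor of the BMP family (0.974), Iqgap2 (0.951), Mfhas1 (0.942) and Rnf180 (0.935). Bmp6 read 211.3 and 202.9 units in whole prostate control, 41.8 and 31.8 in vinclozolin, 128.2 and 79 in epithelium control and 219.6 and 233.4 in epithelium vinclozolin. It had the order of Car2 at each step.

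The genes most like Atp6v1c2 were Gstm6l, a glutathione transferase (r = 0.993), and the fast skeletal muscle troponin I gene Tnni2 (0.982), followed by Myl1 (0.965), LOC106182250 (0.949), Tnnt3 (0.947) and Myl11 (0.947). Gstm6l read 666.2 and 710.1 units in whole prostate control, 180.5 and 186.5 in vinclozolin, 142.2 and 155.1 in epithelium control and 211.9 and 193.4 in epithelium vinclozolin. Of these 6 genes, 4 encode fast skeletal muscle proteins. Car2 and Atp6v1c2 were not alike by this measure, with r = 0.42 between them. The epithelium arrays were all above whole prostate vinclozolin for Car2 and all below it for Atp6v1c2.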

How the data were processed

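RNA of 8 pooled samples in 4 groups of 2 was measured on Affymetrix arrays with biotin label, per the labels' protocols. The authors deposited a linear intensity per probe set, and no source used here names the software behind it. Every array had a 2% trimmed mean of about 125 units, so the authors had scaled the arrays. The number of arrays limits the precision. Readings under 16 units made up 28.3% to 36.8% of each array.

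From these, 57 control probe sets were left out, log2(intensity + 16) was quantile normalised, and the 21729 of 31042 probe sets at or above the 30th percentile of the mean were kept. The added 16 understates changes of dim probe sets. Group means of all 8 arrays were fitted with limma 3.58.1 under R 4.3.3, using lmFit and eBayes (4 residual degrees of freedom, prior 2.62), with Benjamini-Hochberg adjustment over all probe sets tested. The fit was tested on simulated data. Symbols came from the platform annotation, from probe sets with 1 symbol (20826; 436 had several, 9780 were not listed), and promoters from RefSeq. Python 3.11.15 and matplotlib 3.10.9 drew the plots. No 2 arrays were identical.

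The members and the 17 gene lists were chosen with earlier results of these data known. Named are all members, the genes of pathway lists that were called or else the 2 of lowest p, and the 6 genes most correlated with Car2 and with Atp6v1c2 each. Marker lists are given by counts and by the genes a result turns on. A list counts each gene once, by its brightest probe set. Alternatives were other scaling, pseudocounts and filters, array weights, another prior, fewer arrays and the replicate number as a block.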

Additional observations from a re-analysis of the deposited data

Results flagged for a closer look

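The change with lineage differed between epithelium and whole prostate for 12 probe sets of the members, the listed genes and the genes most like Car2 or Atp6v1c2. Each value is the difference of the log2 changes, epithelium minus whole prostate, with its SE, n = 2 arrays per group. The limma adjusted p is added where the value is not a description. For Car2 it was 2.40 ± 0.16 on 1367733_at and 2.46 ± 0.22 on 1386922_at, and for Atp6v1c2 it was 2.13 ± 0.18. These 3 differences are what the genes were picked for, so they are descriptions. Of the genes picked for profiles like theirs, Bmp6 differed by 3.08 ± 0.32, Gstm6l by 2.18 ± 0.16, Ccdc125 by 2.08 ± 0.19 and Nt5dc1 by 1.69 ± 0.18, also given as descriptions.

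Among genes on the marker lists, Msmb differed by 2.25 ± 0.16 (limma adjusted p = 0.00784), Svs4 by 1.76 ± 0.17 (0.0206) and Semg1 by 1.36 ± 0.17 (0.0472), all genes of accessory gland secretion. Of skeletal muscle, Tnnc2 differed by 1.64 ± 0.16 (limma adjusted p = 0.0177) and Myl1 by 2.55 ± 0.22. The Myl1 value is a description, because that gene was also picked for a profile like that of Atp6v1c2. The marker lists were written with earlier results of these data known, so these p-values are not independent support. The 3 secretion genes had positive changes in epithelium and the muscle genes negative ones, none of them called there.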

How the results depend on the processing

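The members' log2 changes with lineage kept their sign in every setting for Car2, Atp6v1c2 and, in whole prostate, for Atp6v0d1, Atp6v1a and Atp6v1b2. In epithelium the small values of Atp6v0d1, of Atp6v1a on 1382048_at and of Atp6v1b2 on 1387664_at changed sign in some settings, as did 1387664_at for the difference and between controls, none called. The counts of calls moved far more. Over all probe sets, the 379 calls in whole prostate became 235 with a pseudocount of 1, 1133 with one of 64, 200 with no filter, 965 with a filter at the 50th percentile, 1814 with a trended robust prior, 871 with array weights, 65 with the compared arrays alone, and 24 to 225 with an array left out. The 2 calls in epithelium became 1 with median centring, 0 with a pseudocount of 1, 66 with one of 64, 0 with no filter, 23 with the stricter filter, 205 with the trended prior, 0 with array weights, 0 with the compared arrays alone, and 0 with any array left out. The 63 calls of the difference became 40 and 262 with pseudocounts of 1 and 64, 32 with no filter, 169 with the stricter filter, 540 with the trended prior, and 5 to 19 with an array left out. The 6051 calls between controls ranged from 2648 to 5789 with an array left out. Among the 8 member probe sets, calls ranged with an array left out from 0 to 3 in whole prostate, 0 to 2 for the difference and 2 to 5 between controls. They were 5 in whole prostate and 2 in epithelium with the trended prior, and 2 in epithelium with a pseudocount of 64. A lone array left in a group is assumed to vary like the other groups. Replicate numbers did not pair the arrays (correlations of replicate deviations between groups from -0.02 to 0.029). With the replicate number as a block, calls were 177 in whole prostate, 0 in epithelium, 26 for the difference and 5356 between controls, and the members' counts were 3, 0, 3 and 5. The causes were not tested. The arrays of the compared groups alone give no fit for the difference.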
